A study of Mus musculus with 89 samples.

Results

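The genes described here are 50 genes of the cell cycle and of DNA replication, chosen by name, and 49 of them are listed in both deposited tables of unique molecular identifier (UMI) counts. The table of cell clumps lists 27538 genes, the table of single cells 23379, and 21817 gene names occur in both. Cdt1 was not analysed here. By their roles, the 49 members comprise 4 G1 cyclins, 10 genes of origin licensing and the replication fork, 5 genes of nucleotide supply, 10 mitotic cyclins and kinases, 9 genes of the kinetochore, the spindle checkpoint and anaphase, 9 genes of the spindle and cytokinesis, and 2 genes of chromosome structure and proliferation (Mki67 and Top2a).

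A cell that enters the cycle first makes D-type cyclins, which with their kinases release the E2F transcription factors, and E2F in turn switches on the genes for licensing replication origins and for making DNA precursors. After replication, a later group of genes encodes the mitotic cyclins, the kinases and the machinery of the spindle and of chromosome separation. In the small intestine, stem cells and their dividing progeny are found in the crypt, and the enterocytes that leave it stop dividing and move up the villus until they are shed at the tip. Secretory cells (goblet, enteroendocrine, tuft and Paneth cells) arise from the same stem cells, whereas lymphocytes of the epithelium come from the blood lineage.

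The study took the jejunum of male C57BL/6 mice on regular chow, loosened the epithelium with EDTA alone so that small groups of neighbouring cells stayed attached, stained the DNA with Hoechst dye, and sorted such clumps or single cells into the wells of plates for 3′ end sequencing by MARS-seq. Pairs were sorted at a DNA content of 4n (27 plates, mice 1 to 5) and larger clumps above 4n (14 plates, mice 1, 4 and 5), and 4 plates of mouse 6, labelled h2n, entered only 1 alternative fit of the zones. Single cells came from 44 plates of mice 1 to 4, part of them sorted by CD24, by Epcam, or by CD45 or CD54 with Epcam. The animals were 3 months old, except that 3 of the 16 single-cell plates of mouse 2 are labelled 4 months, so that mouse 2 of the single cells may stand for more than 1 animal; the labels name no transgene and no treatment. Mice were numbered apart in the clump and cell tables, so that mouse 1 of one was not taken to be mouse 1 of the other. The mouse was the replicate throughout.

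Clumps of mice 1 to 5 were kept if they held over 500 UMIs and 200 or more genes, with mitochondrial UMIs at or under 30%, which left 6004 of 15626 wells. Of these, 5883 were assigned to 1 of 3 zones, crypt, mid-villus and tip, from the landmark genes of enterocytes that the study lists, none of which is a member. This gave 3529 crypt, 1550 mid-villus and 804 tip clumps, with medians of 4424, 1871.5 and 1354 UMIs per clump. UMIs were summed per mouse and zone and are given per 1000000 UMIs of the sum (CPM). Per mouse, crypt sums comprised 369045 to 19001409 UMIs and tip sums 79055 to 816189, so a level at the tip rests on far fewer molecules.

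Promoters of 38 members were found among 27025 genes in the RefSeq promoter table (GRCm38.p6), and the 250 bases before each start were searched on both strands for 3 motifs known from cell cycle promoters. The letters TTTCCCGC, TTTCGCGC, TTTGCCGC or TTTGGCGC, a core of E2F sites, occurred in 5 of the 38 members (13.2%) and in 2.16% of all genes. The letters TTTGAA, known as the CHR element of late cell cycle genes, occurred in 12 members (31.6%) and in 18.3% of all genes, and CCAAT in 31 members (81.6%) and in 37.5% of all genes. All 12 members with TTTGAA also had CCAAT, which 40.2% of the 4934 genes with TTTGAA had; as shares of all promoters, 31.6% of members and 7.34% of genes held both. The 5 members with the E2F letters were Mcm5, Mcm6, Mcm7, Cdc6 and Cdk1, 4 of them licensing genes. A match describes letters in this window and not a bound site. A pair of licensing genes, 3 mitotic genes and Bub3, the member that differed from the rest in tuft-like cells, are printed here, 5′ to 3′ on the gene's strand, with the E2F letters, TTTGAA and CCAAT (or their complements) in capitals.
Mcm5, chr8:75109259-75109508, plus strand: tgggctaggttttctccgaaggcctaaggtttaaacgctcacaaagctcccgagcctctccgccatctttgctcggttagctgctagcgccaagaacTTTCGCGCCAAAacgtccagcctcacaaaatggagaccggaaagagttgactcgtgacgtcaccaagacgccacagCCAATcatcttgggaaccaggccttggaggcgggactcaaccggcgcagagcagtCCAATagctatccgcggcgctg
Mcm6, chr1:128359706-128359955, minus strand: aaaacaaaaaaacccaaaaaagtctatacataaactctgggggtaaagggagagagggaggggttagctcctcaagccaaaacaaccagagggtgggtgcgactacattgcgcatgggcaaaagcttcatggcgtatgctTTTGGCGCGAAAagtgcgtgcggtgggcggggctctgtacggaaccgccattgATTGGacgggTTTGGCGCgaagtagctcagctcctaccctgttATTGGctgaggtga
Cdk1, chr10:69352913-69353162, minus strand: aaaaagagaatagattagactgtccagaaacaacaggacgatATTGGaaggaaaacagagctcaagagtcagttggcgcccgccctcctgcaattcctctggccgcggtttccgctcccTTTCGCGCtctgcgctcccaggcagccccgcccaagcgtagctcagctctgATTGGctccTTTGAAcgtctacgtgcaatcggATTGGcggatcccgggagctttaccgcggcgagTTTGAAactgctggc
Ube2c, chr2:164769679-164769928, plus strand: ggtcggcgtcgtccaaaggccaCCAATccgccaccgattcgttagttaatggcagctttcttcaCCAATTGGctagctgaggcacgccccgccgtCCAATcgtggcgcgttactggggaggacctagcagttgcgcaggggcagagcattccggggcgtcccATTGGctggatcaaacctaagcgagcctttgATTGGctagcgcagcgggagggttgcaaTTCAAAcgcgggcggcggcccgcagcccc
Top2a, chr11:99024190-99024439, minus strand: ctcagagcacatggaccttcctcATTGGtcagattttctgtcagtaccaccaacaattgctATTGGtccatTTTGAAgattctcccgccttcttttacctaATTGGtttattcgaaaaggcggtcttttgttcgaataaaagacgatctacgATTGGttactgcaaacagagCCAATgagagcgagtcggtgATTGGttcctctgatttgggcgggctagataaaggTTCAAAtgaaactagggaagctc
Bub3, chr7:131560120-131560369, plus strand: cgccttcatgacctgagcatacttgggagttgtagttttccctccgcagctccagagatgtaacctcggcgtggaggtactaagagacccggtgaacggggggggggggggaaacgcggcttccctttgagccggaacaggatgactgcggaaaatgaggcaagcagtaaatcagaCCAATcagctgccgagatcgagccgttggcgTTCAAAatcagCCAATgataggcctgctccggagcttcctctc

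Mcm5 and Mcm6 held the E2F letters in overlapping copies on opposite strands, 153 and 149 bases before the start in Mcm5 and 110 and 106 bases before it in Mcm6, and Mcm6 held a further copy at 47 bases. Cdk1 was the member with all 3 motifs in this set, the E2F letters at 131 bases and TTTGAA at 71 and 15 bases before the start. Ube2c, Top2a and Bub3 carried TTTGAA at 29, 23 and 43 bases, each with CCAAT upstream of it. Of the 5 genes of nucleotide supply, 0 held the E2F letters or TTTGAA and 2 held CCAAT.

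The axis comparison asked how far the members' mRNA falls once cells leave the crypt. The summed level of the 49 members was 1323, 1341, 1427, 3206 and 1249 CPM in the crypt of mice 1 to 5, then 211, 161, 191, 457 and 145 CPM in the mid-villus and 164, 87.7, 173, 831 and 291 CPM at the tip. The crypt and villus ranges did not overlap, and mouse 4 stood above the other mice in every zone. In crypt pairs alone mouse 4 had 1303 CPM, within the 813 to 1427 CPM of the other mice. Larger clumps were 1780 of its 2098 crypt clumps. They were 2233 of all 3529 crypt but 314 of all 1550 mid-villus clumps, so the mix of gates differed between zones. The mean crypt level was 1709 ± 839 CPM (SD, n = 5), beside 233 ± 128 CPM for mid-villus and 309 ± 300 CPM for tip clumps. Without mouse 4 they were 1335 ± 73.2, 177 ± 29.8 and 179 ± 83.9 CPM. These sums rested on 70700, 1006 and 299 member UMIs. In such sums, fewer dividing cells and less RNA per dividing cell cannot be told apart.

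**Figure D1:**
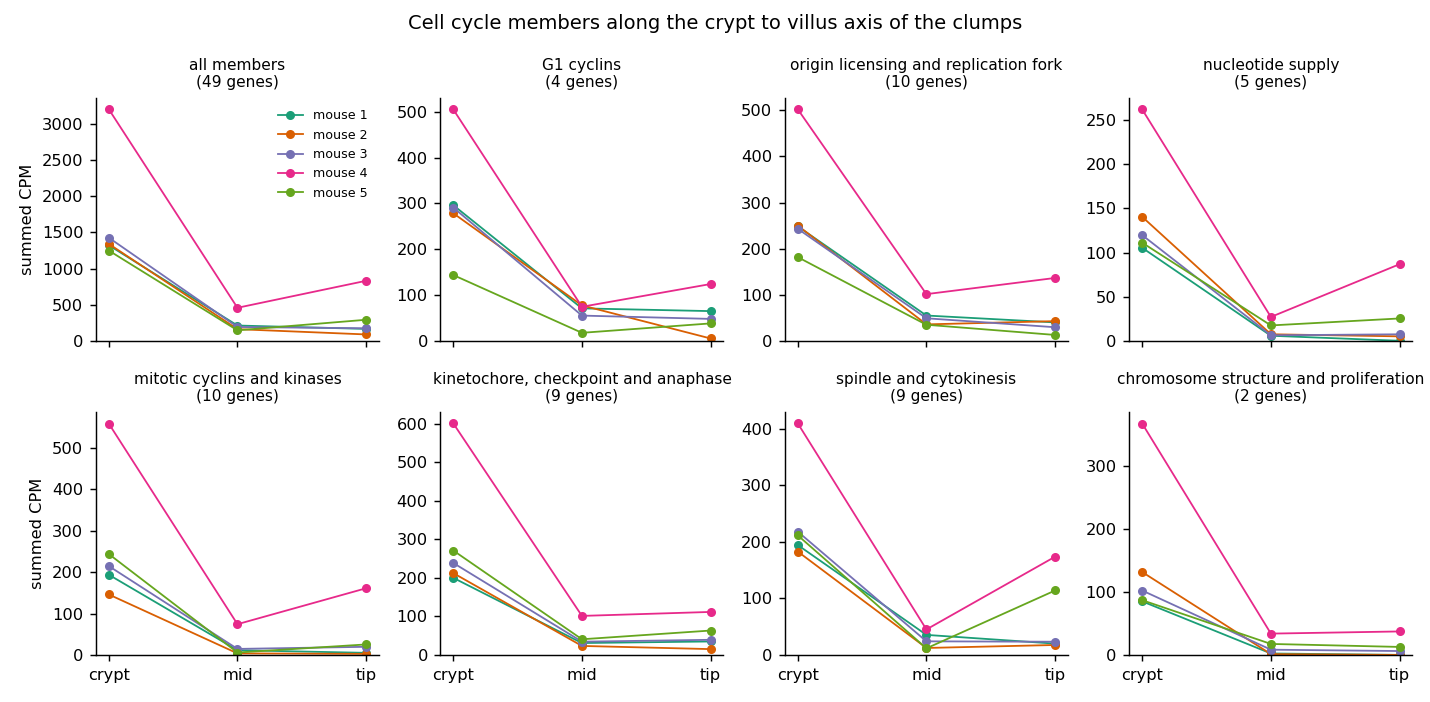
Summed level of the members of each role (CPM, y axis from 0) in crypt, mid-villus and tip clumps, 1 line per mouse (n = 5). In each panel the crypt lies above the villus in every mouse, and mouse 4 reaches 3206 CPM over all members in the crypt.

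The filter for testing asked for a mean of at least 5 CPM over all sums and at least 10 UMIs, which 44 of the 49 members passed; Ccne1, Ccne2, Cdc6, Cdc45 and Bub1 did not. Because most members reached that mean through the crypt alone, the counts below describe the members and lend no support to a direction. By edgeR's quasi-likelihood test with Benjamini-Hochberg adjustment over 9317 genes, 44 of 44 members were lower in the mid-villus than in the crypt at an adjusted p under 0.05, where 25% of all tested genes were lower and 11% higher. At the tip 40 of 44 were lower and 0 higher, where 32.1% of all tested genes were lower and 15.8% higher, 47.9% in all. The median log2 difference of the members was -3.81 for mid-villus against crypt and -3.22 for tip against crypt, beside -0.21 and -0.40 over all genes. Mid-villus and tip gave 0 called members, where 10.7% of genes differed, 4.4% higher and 6.28% lower at the tip; 2 members had an unadjusted p under 0.05 there, and the median log2 difference, tip minus mid-villus, was 0.15 beside -0.19 over all genes. With the mouse as a block, 1 member was called there, Hmmr, higher at the tip (log2 3.31, SE 1.00, edgeR adjusted p = 0.00952). At the tip against the crypt 42 were then lower, Cenpe and Kif20a now included (edgeR adjusted p = 0.0130 and 0.0242). The shares of all genes above come from the fits without the block.

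Counted per mouse, 45 of 49 members had a higher level in the crypt than in the mid-villus in 5 of 5 mice, and 41 had one than at the tip, where 31.3% and 35.7% of all tested genes did so. Levels of crypt and mid-villus did not overlap for 36 members, 35 of them among the 44 tested, where 15.9% of all tested genes showed the same. Crypt and tip did not overlap for 26 members, 25 of them tested, where 20.3% of all genes did so. In pairs alone 31 members were testable, and 29 were lower in the mid-villus and 26 at the tip. The shares of all genes called above belong to the fit of all clumps, so these counts cannot be set beside them.

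**Figure D2:**
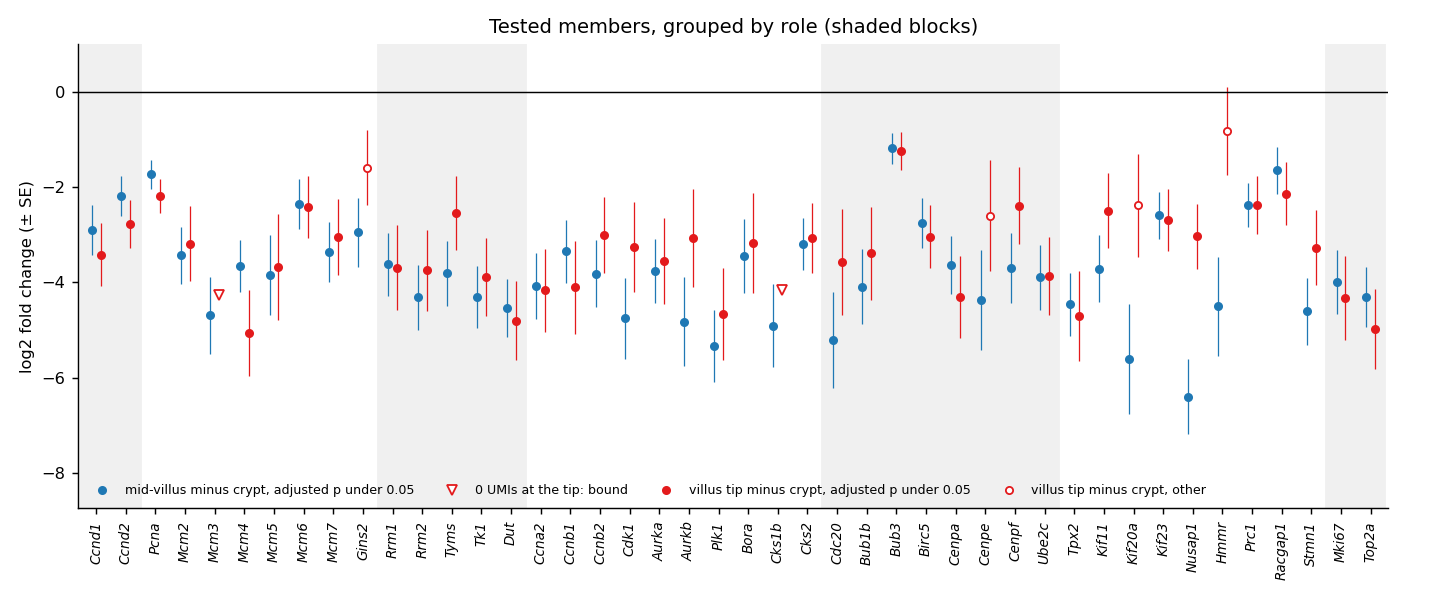
Log2 fold change (± SE) of the 44 tested members in clumps, mid-villus minus crypt (blue) and villus tip minus crypt (red), ordered by role in alternating shaded blocks; open triangles are bounds for Mcm3 and Cks1b, which had 0 UMIs at the tip. Pcna, Bub3 and Racgap1 lie nearest to 0 in the mid-villus, and Hmmr does at the tip.

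Among the G1 cyclins, which drive the step into replication, Ccnd2 (minus strand, chr6:127125162-127152193, GRCm38) had the most UMIs. Its level was 205, 218, 192, 320 and 73.2 CPM in the crypt of mice 1 to 5, 43.4, 73.6, 43.4, 47.2 and 5.80 CPM in the mid-villus, and 44.9, 2.51, 25.7, 62.0 and 37.9 CPM at the tip. The lowest crypt value, in mouse 5, lay just under the highest mid-villus value, in mouse 2. The fitted log2 difference from the crypt was -2.18 (SE 0.42, edgeR adjusted p = 0.000304) in the mid-villus and -2.77 (SE 0.50, adjusted p = 0.000106) at the tip. Ccnd1 levels were 87.0, 50.2, 91.0, 175 and 67.7 CPM in the crypt and at most 25.1 CPM in the mid-villus, a log2 difference of -2.90 (SE 0.52). The E-type cyclins, which act with Cdk2 at the start of replication, were close to the detection limit. Ccne1 had 1.83 to 8.05 CPM in the crypt, and Ccne2 had 0 to 4.57 CPM there and 15.0, 2.51, 12.3, 0 and 0 CPM at the tip, from 66 UMIs in the crypt and 14 at the tip. The mean tip level of Ccne2 (5.94 CPM) exceeded its mean crypt level (2.58 CPM), which otherwise held only for Hmmr among the members, and Ccne2 was not tested.

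Genes of origin licensing and the replication fork had a summed level of 285 ± 125 CPM in the crypt and 12.6 to 136 CPM at the tip. Pcna, the sliding clamp of the DNA polymerases, had 103, 84.5, 93.8, 119 and 84 CPM in the crypt, 33.1, 29.5, 32.3, 38.2 and 11.6 CPM in the mid-villus, and 9.97, 35.1, 15.9, 12.4 and 12.6 CPM at the tip. Its crypt level varied least between mice, mouse 4 included, and lay above both villus zones without overlap, while mid-villus and tip overlapped. The log2 difference was -1.73 (SE 0.30) in the mid-villus and -2.18 (SE 0.36) at the tip. The processed pseudogene Pcna-ps2 was listed separately with 72.8 ± 8.12, 22.9 ± 4.95 and 11.2 ± 6.99 CPM in the 3 zones, and with 2125 UMIs in kept clumps against 3130 for Pcna, so the division of reads between them is uncertain.

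The Mcm2 to Mcm7 subunits form the helicase that unwinds DNA at the fork. Mcm6 had 27.4, 32.0, 32.4, 83.1 and 24.4 CPM in the crypt, 4.55 to 24.7 CPM in the mid-villus and 0 to 24.8 CPM at the tip, with log2 differences of -2.36 (SE 0.52) and -2.42 (SE 0.65); the tip call was lost without mouse 3. Mcm7 had 33.3, 24.0, 30.9, 67.7 and 13.5 CPM in the crypt and a log2 difference of -3.36 (SE 0.62) in the mid-villus. Of these subunits, Mcm6 had the highest mean mid-villus level, 9.60 CPM, against 1.43 to 3.68 CPM for the others. Mcm3 was at 0 UMIs in the tip clumps of all 5 mice, so its pooled crypt level was at least 19.1-fold higher, with 3 UMIs in all tip clumps together taken as the floor. Mouse 4 gave 830 of its 950 crypt UMIs, and without that mouse the bound was 8.36-fold. For Cdc45, a fork helicase partner with 262 crypt UMIs, the same bound was 5.26-fold, and 2.09-fold without mouse 4. Gins2, another part of that helicase complex, fell in the mid-villus (log2 -2.95, SE 0.73), and at the tip its log2 difference was -1.59 (SE 0.79, adjusted p = 0.102).

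The 5 genes of nucleotide supply were at 148 ± 65.3 CPM together in the crypt, 5.71 to 27.0 CPM in the mid-villus, and 0, 5.01, 7.35, 86.8 and 25.3 CPM at the tip. Each of the 5 fell in both villus zones, though Tyms did not pass at the tip without mouse 1, 2 or 3. Dut, which removes dUTP from the precursor pool, had 25.6, 33.1, 33.1, 70.1 and 29.8 CPM in the crypt and 0, 0, 1.65, 9.00 and 0 CPM in the mid-villus, a log2 difference of -4.54 (SE 0.61) in the mid-villus and -4.80 (SE 0.83) at the tip. Tyms, the thymidylate synthase, had 23.8, 30.8, 23.3, 55.2 and 24.4 CPM in the crypt and a log2 difference of -3.81 (SE 0.68) in the mid-villus. Tk1, the thymidine kinase of the salvage route, had 17.9, 33.1, 24.6, 54.5 and 27.1 CPM in the crypt and fell by 4.30 on the log2 scale (SE 0.64).

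The 10 mitotic cyclins and kinases all fell in both villus zones. Together they had 194, 146, 215, 559 and 244 CPM in the crypt and 11.4, 3.68, 14.5, 74.2 and 5.80 CPM in the mid-villus, and these groups did not overlap. Ccna2, the cyclin of replication and early mitosis, had 38.0, 36.5, 50.1, 117 and 48.8 CPM in the crypt and 0 to 20.2 CPM in the mid-villus (log2 -4.08, SE 0.69). Ccnb2, a B-type cyclin of mitosis, had 25.96, 27.4, 38.4, 99.8 and 43.4 CPM in the crypt and fell by 3.81 on the log2 scale (SE 0.71). Cdk1, the kinase both cyclins bind, had 28.5, 15.98, 27.1, 76.1 and 29.8 CPM in the crypt and a log2 difference of -4.75 (SE 0.84) in the mid-villus; its tip call was lost without mouse 3 and by DESeq2. The polo kinase gene Plk1 showed the lowest mid-villus value of the role, -5.34 (SE 0.75). Cks1b, a Cdk-binding subunit, was at 0 UMIs in all tip clumps, a crypt level at least 17.8-fold higher, or at least 6.48-fold without mouse 4, which gave 794 of its 887 crypt UMIs.

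Of the kinetochore, checkpoint and anaphase genes, Ube2c, the ubiquitin-conjugating enzyme of the anaphase-promoting complex, had the highest level, 75.0, 73.1, 80.6, 206 and 106 CPM in the crypt against 4.57, 0, 4.55, 24.7 and 23.2 CPM in the mid-villus. Its log2 difference was -3.89 (SE 0.68) there and -3.86 (SE 0.82) at the tip. Birc5 (survivin, of the chromosomal passenger complex) fell by 2.75 (SE 0.52) and Cenpa, the centromeric histone, by 3.64 (SE 0.61) on the log2 scale in the mid-villus. Bub3, a spindle checkpoint protein (plus strand, chr7:131560222-131571895, GRCm38), stood apart from these. It had 37.7, 27.4, 39.4, 57.3 and 24.4 CPM in the crypt, 20.5, 12.3, 19.0, 24.7 and 5.80 CPM in the mid-villus, and 19.9, 7.52, 19.6, 24.8 and 0 CPM at the tip. Crypt was higher than villus in each mouse, but the groups overlapped across mice, and the log2 difference was -1.19 (SE 0.33, adjusted p = 0.00649) in the mid-villus and -1.24 (SE 0.39, adjusted p = 0.0120) at the tip. These calls did not hold in pairs alone (log2 -0.57 and -0.41) or after thinning each clump to 500 UMIs (log2 -0.94 and -1.17), and were also lost without mouse 1 or mouse 3. The tip call was lost as well without mouse 2 or mouse 5, by DESeq2 (log2 -0.97) and with mouse 6 added (log2 -0.81). Cenpe, a kinetochore motor, had 0, 0, 0, 0 and 37.9 CPM at the tip and did not pass there (log2 -2.6, SE 1.17, adjusted p = 0.0706). The checkpoint kinase gene Bub1 had 0 UMIs at the tip against 151 in the crypt, at least 3.03-fold higher in the crypt (2.16-fold without mouse 4).

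Genes of the spindle and cytokinesis were led by Stmn1, a microtubule regulator, with 81.5, 50.2, 96.7, 126 and 59.6 CPM in the crypt and 2.28, 0, 2.07, 15.7 and 5.80 CPM in the mid-villus (log2 -4.61, SE 0.71). At the tip Stmn1 had 0, 2.51, 1.23, 74.4 and 25.3 CPM, where the highest value came from mouse 4, with 27 tip clumps. Racgap1, which positions the cleavage furrow, had 20.8, 20.5, 22.7, 49.3 and 27.1 CPM in the crypt, and in mouse 1 its mid-villus level, 24.0 CPM, was above the crypt level; its log2 difference was -1.65 (SE 0.49, adjusted p = 0.0113), a call that was lost without mouse 2, 3, 4 or 5. The Racgap1 mid-villus call was also lost in pairs alone (log2 -1.05) and after thinning to 500 UMIs (log2 -1.33). The tip call of Racgap1 was lost without mouse 3 or 5 and in pairs alone (log2 -1.08). Kif23, the motor that partners Racgap1, had 14.5 to 43.2 CPM in the crypt and a log2 difference of -2.59 (SE 0.49). Nusap1, which bundles spindle microtubules, showed the lowest fitted value of all members in the mid-villus, -6.39 (SE 0.78), from 1 UMI. Hmmr, a spindle assembly factor, had 0, 0, 1.23, 49.6 and 50.6 CPM at the tip from 9 UMIs and did not pass there (log2 -0.83, SE 0.92, adjusted p = 0.486), nor did the kinesin Kif20a (log2 -2.38, SE 1.08, adjusted p = 0.0740).

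Mki67, the coat protein of mitotic chromosomes used as a proliferation marker, had 33.3, 52.5, 46.3, 176 and 27.1 CPM in the crypt, 1.14, 1.23, 3.72, 18.0 and 5.80 CPM in the mid-villus, and 0, 0, 3.68, 24.8 and 0 CPM at the tip. Top2a, the topoisomerase that untangles replicated DNA, had 51.6, 78.8, 55.7, 191 and 59.6 CPM in the crypt and 1.14, 0, 4.55, 15.7 and 11.6 CPM in the mid-villus. In neither gene did crypt and villus overlap. The log2 differences at the tip were -4.32 (SE 0.88, adjusted p = 0.000377) for Mki67 and -4.97 (SE 0.84, adjusted p = 5.51e-05) for Top2a.

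Depth differed between zones, so each clump was also thinned to 500 UMIs. A member UMI was then found in 43.4 ± 12.5% of crypt clumps (range over mice 35.7 to 65.5%), 9.42 ± 3.70% of mid-villus clumps and 14.0 ± 11.2% of tip clumps. Without thinning the shares were 72.8%, 34.1% and 30.1%. After thinning, 3 or more member UMIs were found in 7.63 to 20.5% of the crypt clumps of a mouse, in 0 to 0.820% of its mid-villus clumps and in 0 to 0.330% of its tip clumps. A UMI of a replication or nucleotide gene together with one of a mitotic gene occurred in 4.42 to 16.7% of crypt clumps and in 0 to 0.820% of mid-villus clumps.

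Values that moved with the zone stood as follows. The 9 stem cell markers summed to 160 to 414 CPM in the crypt and 50.3 to 83.2 CPM in the mid-villus, and to 35.1 to 174 CPM in tip clumps, which overlapped with the crypt; all 9 were detected. The 11 goblet markers had 3073 to 6496 CPM in crypt clumps and 6791 to 27832 CPM in tip clumps, without overlap and against the direction of the members. The 10 Paneth markers reached 15281 CPM in the crypt of mouse 1 and 87.9 CPM in that of mouse 2, while the members' sums in those mice were 1323 and 1341 CPM. Immune markers (14 of 15 listed were in the table) had 121 to 997 CPM in the crypt and 545 to 3843 CPM at the tip, against the direction of the members. The part of these cells in the members' levels was not tested. In wells of the clump plates with 20 to 200 UMIs, taken as background, the members summed to 904, 375, 1025, 1968 and 715 CPM in mice 1 to 5, and the villus sums lay below that level in every mouse. No background was subtracted, and how much of the villus levels is background was not tested.

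Pairs and larger clumps were compared among clumps assigned to the crypt. This held the zone label equal, but not the position within the crypt. A dividing cell holds more DNA than a resting one, so in a gate set by DNA content the number of cells and the stage of the cycle cannot be told apart. The members summed to 813, 1341, 1427, 1303 and 1335 CPM in the crypt pairs of mice 1 to 5 and to 1504, 3247 and 1239 CPM in the larger crypt clumps of mice 1, 4 and 5. Larger clumps were higher in mice 1 and 4 and lower in mouse 5, whose pairs held 17 clumps and 38199 UMIs. By edgeR's test 0 of 44 members passed an adjusted p under 0.05, where 0% of 9815 genes did, and 16 members and 339 of all genes had an unadjusted p under 0.05. DESeq2 also called 0 genes. All 44 fitted log2 differences were above 0, with a median of 0.84 beside 0.04 over all genes; without mouse 4, 41 of 44 were above 0 with a median of 0.55. With the mouse as a block the smallest adjusted p among members was 0.0548, for Mcm4. That no member passed does not show that pairs and larger clumps were alike.

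**Figure D3:**
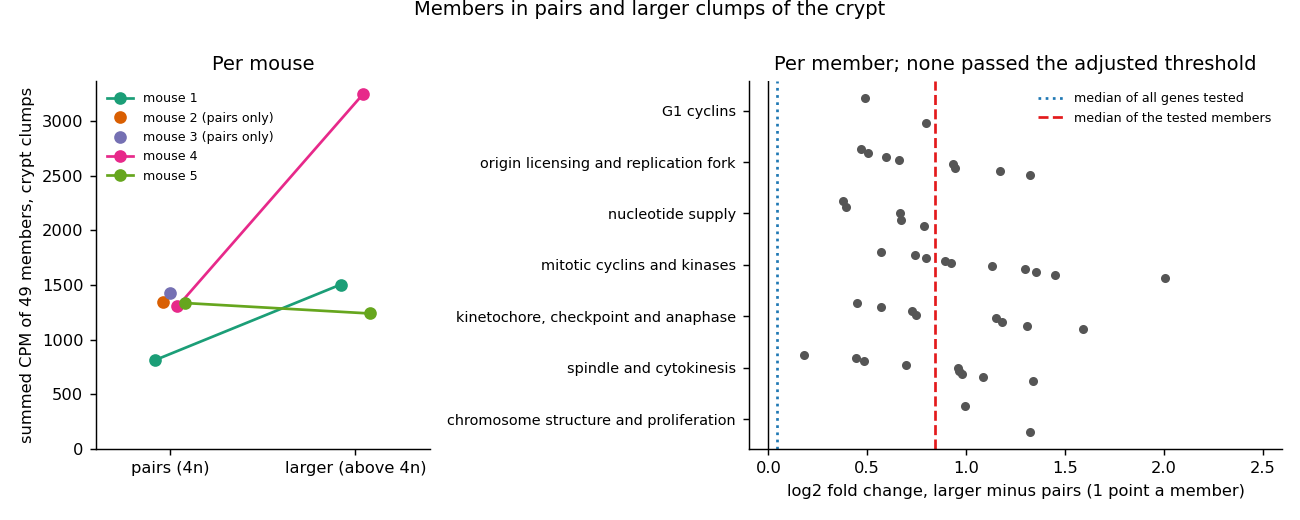
Left, summed CPM of the 49 members in crypt pairs and larger crypt clumps, with a line for each mouse that has both; right, log2 fold change of each of the 44 tested members, larger minus pairs, by role. Mouse 4 rises from 1303 to 3247 CPM, mouse 5 goes from 1335 to 1239 CPM, and the median of the members is 0.84 beside 0.04 for all genes.

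The largest fitted difference was that of Bora, the activator of the Aurora A kinase, with 4.18, 7.99, 4.41, 5.00 and 0 CPM in pairs and 13.4, 28.9 and 15.1 CPM in larger clumps (log2 2.01, SE 0.48, adjusted p = 0.944). Its groups did not overlap. Cdc20, which activates the anaphase-promoting complex, had 11.2, 4.57, 17.3, 20.0 and 0 CPM in pairs and 19.3, 57.6 and 33.2 CPM in larger clumps (log2 1.59, SE 0.52), and these ranges overlapped by a little. Mki67 had 15.3, 52.5, 46.3, 27.5 and 0 CPM in pairs and 39.7, 179 and 30.2 CPM in larger clumps (log2 1.32, SE 0.53). Differences were smaller for Pcna (log2 0.50, SE 0.34), Ccnd2 (0.49, SE 0.41) and Stmn1 (0.18, SE 0.46). Beside these values, the Paneth markers summed to 87.9 to 26519 CPM in pairs and to 447 to 20121 CPM in larger clumps, and the stem markers to 105 to 268 and 178 to 417 CPM; their part in the differences was not tested. In the mid-villus, 0 of 44 members passed (0.0105% of 9563 genes did), the median was 1.70 beside 0.05, and the smallest sum, mouse 5 pairs, held 13 clumps and 13564 UMIs. The size effect did not pass as different between mid-villus and crypt for any member, with 1 unadjusted p under 0.05.

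Single cells were clustered without the members and without the other cell cycle genes listed for this work. Named from markers, 2505 cells were enterocyte-like, 1660 immune-like, 247 enteroendocrine-like, 213 goblet-like and 186 tuft-like, and 388 stayed unnamed. The cell gates differ between mice, and cells above 7000 UMIs or 1500 genes were left out. Those 1339 wells had a higher summed member level, 268, 712, 799 and 572 CPM in mice 1 to 4, than the kept cells, with 93.8, 562, 460 and 309 CPM. The 49 members together had 37.7, 119, 208 and 145 CPM in enterocyte-like cells of mice 1 to 4, 244, 321, 614 and 669 CPM in goblet-like cells, and 113, 606, 373 and 974 CPM in enteroendocrine-like cells. Tuft-like cells of mice 1 to 3 had 205, 360 and 555 CPM. Immune-like cells of mice 2 to 4 were highest and close to each other, at 1446, 1338 and 1365 CPM, and did not overlap with any other type. The sums in goblet-like, enteroendocrine-like and tuft-like cells overlapped. In cell wells of 20 or more but under 200 UMIs the members summed to 402, 428, 638 and 329 CPM in mice 1 to 4, above the enterocyte-like and tuft-like sums of each of these mice, the goblet-like sums of mice 1 to 3 and the enteroendocrine-like sums of mice 1 and 3. The sums by type rested on 971 member UMIs in enterocyte-like, 219 in goblet-like, 291 in enteroendocrine-like, 143 in tuft-like and 2334 in immune-like cells.

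Only 19 members passed the filter over these sums, some of them through the immune-like cells, where they are high, so the counts by type describe the members and lend no support to a direction. Against enterocyte-like cells, 2 members were higher and 1 lower in goblet-like cells (4.12% and 14.9% of all tested genes), 1 and 1 in tuft-like cells (7.84% and 12.5%), 1 and 1 in enteroendocrine-like cells (10.9% and 15.9%), and 13 and 0 in immune-like cells (25% and 24.3%). With no upper limits on cells, 1 member was higher and 7 were lower in tuft-like cells. The shares of all genes above belong to the fit with these limits. Mouse 2 gave 218 of the enteroendocrine-like and 157 of the tuft-like cells, of which 13 and 34 came from its plates labelled 4 months, and without those plates the counts by type did not change. The members' median log2 difference was -0.07 in goblet-like, -0.93 in tuft-like, -0.44 in enteroendocrine-like and 1.55 in immune-like cells, beside -0.70, -0.31, -0.16 and 0.08 over all genes. Scaling by total UMIs in place of TMM moved the medians of all genes to 0.25, 0.94, 1.2 and 1.46 and those of the members to 0.81, 0.17, 0.91 and 2.85. Calls over all genes then went from 406 higher and 1469 lower to 779 and 453 in goblet-like cells, from 772 and 1230 to 2236 and 491 in tuft-like cells, from 1074 and 1563 to 3057 and 435 in enteroendocrine-like cells, and from 2464 and 2392 to 5433 and 1142 in immune-like cells.

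The cyclin Ccnd2 exceeded the other members together in 3 of 4 mice in goblet-like cells (not in mouse 4) and in 3 of 4 in enteroendocrine-like cells (not in mouse 3). It had 2.16, 14.3, 36.9 and 21.8 CPM in enterocyte-like cells and 215, 238, 404 and 197 CPM in goblet-like cells, without overlap (log2 2.98, SE 0.62, adjusted p = 0.000106). In enteroendocrine-like cells it had 75.4, 455, 160 and 708 CPM (log2 2.73, SE 0.63, adjusted p = 0.000326), but 203 of its 216 UMIs came from mouse 2, and without that mouse the adjusted p was 0.135. In immune-like cells it had 736, 691 and 568.4 CPM (log2 3.94, SE 0.65, adjusted p = 2.03e-07). Tuft-like cells had 0, 20.5 and 61.6 CPM, a range that overlapped with enterocyte-like cells (log2 -1.08, adjusted p = 0.444). After thinning to 500 UMIs, Ccnd2 was found in 0.594% of enterocyte-like, 12.0% of goblet-like, 17.6% of enteroendocrine-like, 24.8% of immune-like and 0.221% of tuft-like cells; the median depths were 2857, 1991, 1820, 854 and 2206.5 UMIs. Thinning left out cells under 500 UMIs, 325 of 1660 immune-like but 43 of 2505 enterocyte-like cells, so the immune-like share covers the deeper cells. In cell wells of 20 or more but under 200 UMIs Ccnd2 had 100 to 245 CPM. Mouse by mouse, the goblet-like values were above this level in 4 of 4 mice and the immune-like values in 3 of 3. The enteroendocrine-like values were above it in mice 2 and 4 and below it in mice 1 and 3.

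Bub3, the member nearest to its crypt level in the mid-villus clumps, was high in tuft-like cells. It had 74.7, 217 and 370 CPM there, from 84 UMIs, 74 of them from mouse 2, against 1.30, 3.402, 10.1 and 8.49 CPM in enterocyte-like cells (log2 3.68, SE 0.52, adjusted p = 1.12e-08). The groups did not overlap, and the lowest tuft-like value was also above the highest values in goblet-like (39.4 CPM), enteroendocrine-like (6.73 CPM) and immune-like cells (43.5 CPM). However, 3 UMIs correspond to 113, 160 and 266 CPM in enteroendocrine-like cells of mice 1, 3 and 4. In goblet-like cells of mouse 4 they correspond to 118 CPM. These sums are too small to show whether they overlap with the lowest tuft-like value. Thinned, Bub3 was found in 17.5% of tuft-like and 0.283% of enterocyte-like cells. In the same tuft-like cells Mki67 had 18.7, 2.93 and 0 CPM and Stmn1 had 0 UMIs.

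**Figure D4:**
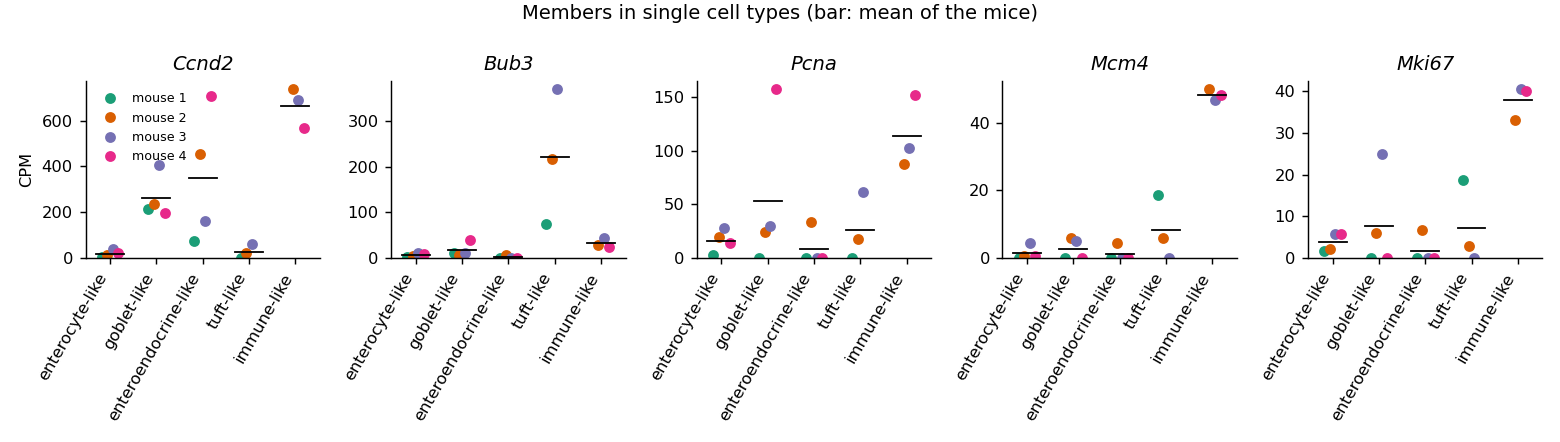
Level (CPM, y axes from 0) of Ccnd2, Bub3, Pcna, Mcm4 and Mki67 in the 5 named cell types, 1 point per mouse and a bar at the mean (n = 4 mice, 3 for tuft-like and immune-like cells). Immune-like cells stand above enterocyte-like cells for all 5 genes, and Bub3 is highest in tuft-like cells, between 74.7 and 370 CPM.

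In immune-like cells the 13 higher members included genes of licensing, nucleotide supply and mitosis. Mcm4 had 49.8, 46.7 and 48.0 CPM against 0, 0.680, 4.31 and 0.531 CPM in enterocyte-like cells (log2 3.63, SE 0.55, adjusted p = 2.45e-08). Pcna had 88.1, 103 and 152 CPM (log2 1.53, SE 0.49) and Mki67 had 33.2, 40.4 and 40.03 CPM (log2 1.89, SE 0.49, adjusted p = 0.000832). Mcm3, Dut, Cks1b, Mcm6, Mcm7, Racgap1, Cenpa, Top2a and Bub3 were higher by 1.19 to 3.10 on the log2 scale. Ccnd1, Rrm1, Birc5, Cenpe, Prc1 and Stmn1 did not pass (log2 0.02 to 1.42). DESeq2 called 5 members, while the shares of all genes given for immune-like cells are those of edgeR. The Bub3 and Top2a calls were each lost in 7 alternatives (Bub3 without mouse 1, 2 or 3, Top2a without mouse 1, 2 or 4), that of Cenpa in 6 (without mouse 1, 3 or 4 among them) and that of Mcm7 in 3 (without mouse 4 among them). With no upper limits on cells, the Cenpa difference was 0.56 on the log2 scale. Pcna lost its call in 2 alternatives, and Mcm6, Cks1b and Racgap1 in 1 each.

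The remaining calls rested on few molecules. Cks1b in goblet-like cells had 7 UMIs, from mice 3 and 4 (log2 3.21, SE 0.92, adjusted p = 0.00641), and was not called without mouse 3. Racgap1 in goblet-like, Stmn1 in tuft-like and Top2a in enteroendocrine-like cells were called lower on 0 UMIs, where enterocyte-like cells had 4.65 ± 2.92, 6.503 ± 4.17 and 4.30 ± 2.53 CPM. The Racgap1 call was lost in 10 alternatives, among them without each of the 4 mice, by DESeq2 and with no upper limits on cells (log2 -1.02 there, -4.97 as reported). The Top2a call was lost in 6, among them without mouse 2 or 3 and with no upper limits on cells (log2 -0.82 there, -4.84 as reported), and that of Stmn1 in 5, among them without mouse 3. All 3 were lost when scaled by total UMIs and by DESeq2.

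The make-up of the members' signal differed with the type. Replication and nucleotide genes gave 25.7 ± 2.31% of the summed member CPM in crypt clumps, mitotic, spindle and chromosome genes 56.1 ± 6.43%, and G1 cyclins 18.2 ± 4.47%. In enterocyte-like cells the G1 cyclins gave 20.1%, in goblet-like cells 68.3 ± 19.7%, in enteroendocrine-like cells 73.1 ± 23.5% and in immune-like cells 49.95 ± 5.67%. In tuft-like cells they gave 5.87% and the mitotic group, with Bub3 in it, 73.4%. Over mice the G1 share ran from 41.2 to 88.0% in goblet-like and from 42.9 to 100% in enteroendocrine-like cells. Each mouse counted equally, though the smallest sums held 25405 UMIs (goblet-like), 11299 (enteroendocrine-like) and 16221 (tuft-like). In such a mouse few member molecules set the share. Without Ccnd2 the members' sum was 29.3, 83.2, 210 and 472 CPM in goblet-like cells and 35.5, 105, 171 and 124 CPM in enterocyte-like cells, which overlapped.

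**Figure D5:**
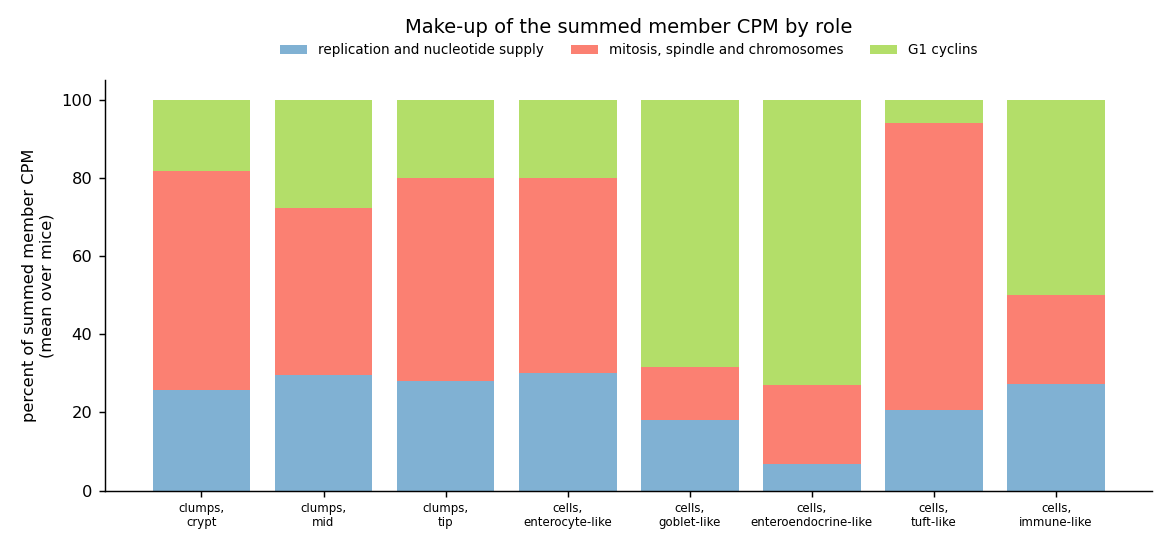
Share of the summed member CPM (percent, mean over mice, y axis from 0 to 100) given by replication and nucleotide genes, by mitotic, spindle and chromosome genes, and by G1 cyclins, in 3 clump zones and 5 cell types. G1 cyclins give 18.2% in crypt clumps and 73.1% in enteroendocrine-like cells, where single mice range from 42.9 to 100%.

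The axis was also read in the enterocyte-like single cells, which come from other plates and were taken fully apart. The members summed to 1852, 597, 593 and 640 CPM in crypt cells of mice 1 to 4, to 47.8, 71.7, 88.2 and 78.6 CPM in mid-villus cells and to 24.3, 35.2, 65.3 and 47.1 CPM in tip cells. The crypt value of mouse 1 came from 5 cells. The filter again let members pass through their crypt level, so the counts describe and do not support a direction. Of the 16 members that passed, 12 were lower at the tip, where 24.7% of 7352 genes were lower and 23.7% higher than in crypt cells (48.3% in all), and 10 in the mid-villus, where 14.1% were lower and 10.3% higher. The median log2 differences were -3.31 and -2.61 beside 0.05 and 0.08 over all genes. Stmn1 had 77.2, 52.2, 41.9 and 40.5 CPM in crypt cells and 0, 0, 0 and 2.67 CPM in mid-villus cells (log2 -5.13, SE 0.72). Ccnd2 had 232, 75.3, 95.3 and 118 CPM in crypt cells and 1.03, 0, 9.32 and 3.62 CPM at the tip (log2 -4.05, SE 0.57). Racgap1 differed least, with 3.73 ± 2.598 CPM at the tip (log2 -0.34, SE 0.76, edgeR adjusted p = 0.738). Bub3 passed at the tip (log2 -3.01, SE 0.73) but not in the mid-villus (log2 -1.23, SE 0.57, edgeR adjusted p = 0.116). The Bub3 tip call was lost without mouse 3 (log2 -2.34), and Bub3 was called in the mid-villus when scaled by total UMIs (log2 -1.67).

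Other genes of the cell cycle were read from lists of non-members. Of 30 tested replication genes, 21 were lower in the mid-villus and 20 at the tip than in the crypt, and 0 were higher. Of 25 tested mitosis genes, 25 and 21 were lower. Of all tested genes 25% were lower in the mid-villus and 32.1% at the tip. Pold2, a subunit of DNA polymerase delta, had 31.1, 45.7, 22.4, 64.4 and 8.13 CPM in the crypt and 1 UMI at the tip. Dnmt1, the maintenance DNA methyltransferase, had 21.7 ± 14.1 CPM in the crypt and 2.27 ± 2.22 in the mid-villus. Of 15 tested regulators of the G1 to S step, 8 were lower and 0 higher at the tip, where 32.1% of all tested genes were lower, among them Cdk4 (84.1, 73.1, 74.9, 173 and 29.8 CPM in the crypt and 15.2 ± 19.8 CPM at the tip, log2 -3.23), Cdk6 and Myc.

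Of 16 tested inhibitors and brakes of the cycle, 6 were higher and 3 lower at the tip, where 15.8% of all tested genes were higher and 32.1% lower. Ccng2, a cyclin linked to cell cycle exit, had 13.5, 9.13, 24.9, 2.95 and 5.42 CPM in the crypt and 145, 118, 210, 136 and 88.5 CPM at the tip, without overlap (log2 3.77). Mxd1, an antagonist of Myc, had 64.2 ± 33.0 CPM in the crypt and 767 ± 186 CPM at the tip, but it is one of the tip landmark genes that set the zone. Pkmyt1, which restrains Cdk1, fell with the members (12.4 ± 6.99 CPM in the crypt, 1 UMI at the tip). In the single cells the inhibitor Cdkn1c had 523, 343 and 123 CPM in tuft-like cells against 1.91 to 4.33 CPM in enterocyte-like cells (log2 5.07, adjusted p = 1.87e-10). Cdkn1c was also higher in enteroendocrine-like than in enterocyte-like cells (log2 3.67, edgeR adjusted p = 2.23e-06). Ccng2 was at 1 UMI in the tuft-like cells, and it was lower in goblet-like than in enterocyte-like cells as well (log2 -1.94, edgeR adjusted p = 0.0131).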

How the data were processed

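The authors deposited 2 tables of UMI counts, 1 of clumps (17162 wells, 38454111 UMIs) and 1 of single cells (16850 wells, 39137313 UMIs), with no normalization. Per the labels, libraries were MARS-seq 2.0 3′ ends, and the submitters' processing notes name bcl2fastq 2.15.0.4 and GRCm38; the study's methods name STAR within zUMIs for alignment and UMI counting. The study's empty-well background subtraction is not applied in the deposited values. A 3′ UMI count does not scale with transcript length. The 384 well barcodes are reused on every plate, and 0 well names occur in both tables.

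Wells were filtered as described (single cells: 200 to 7000 UMIs, 150 to 1500 genes, at most 40% mitochondrial UMIs), and the 2% of clumps poorest in landmark UMIs got no zone. A clump took the zone whose landmark set correlated best with its own landmark shares. Cells were clustered with scanpy 1.11.5 (2000 variable genes, 25 components, 20 neighbors, Leiden resolution 0.1) and named from markers in the leading genes. No doublet caller was run; the upper limits stood in for it. UMIs were summed per mouse and group with at least 5 wells, and tested with edgeR 4.0.16 (quasi-likelihood, TMM, Benjamini-Hochberg over all genes tested, threshold 0.05), with no block. SE is the absolute log2 difference divided by the square root of F. DESeq2 1.42.0, other scalings, filters, zone and type rules, and leaving out each mouse were alternatives.

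Members and lists were chosen with earlier results of these data known. Named genes are the up to 3 of each role with the most UMIs in kept clumps, those against their role's direction and those called in a cell type, and up to 3 of each other list with the largest fold among those called; other members given with values (such as Bora, Cdc20, Plk1, Gins2, Nusap1, Hmmr and those at 0 UMIs) were named after their values were seen. Same-numbered sums within a table carry 1 mouse number by the labels (mouse 2 of the single cells at 2 ages), and their deviations correlated with r of 0.342 to 0.749 between zones, 0.0381 to 0.378 between gates, 0.0776 to 0.672 between types and 0.0712 to 0.358 between zones of single cells. The fits were tested on simulated data with known changes. For larger clumps against pairs, 0% of 2-fold and 42.3% of 4-fold changes were recovered in the crypt, and 0% and 3.03% in the mid-villus. For goblet-like against enterocyte-like cells they were 1.02% and 12.9%. For tip against crypt they were 4.21% and 59.3% in clumps and 8.6% and 57.3% in single cells. A member that did not pass may therefore still differ. Floors (3 UMIs) cover counting error only.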

Additional observations from a re-analysis of the deposited data

Results flagged for a closer look

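In groups of 4 or 5 mice, a gap between the highest or lowest mouse and its neighbour was compared with Dixon's 95% limit (0.710 for 5 values, 0.829 for 4). For a group taken alone, chance exceeds it in about 1 in 20 cases. Here 15 of 31 groups exceeded it, most of them through mouse 4. The groups are not independent, since each role sum is part of the sum over all members in the same wells. Mouse 4 was the highest in crypt clumps for the sum of all members (3206 CPM), licensing and fork genes (503), nucleotide supply (262), mitotic cyclins and kinases (559), kinetochore genes (601), spindle genes (409) and chromosome genes (366). It was also the highest in mid-villus clumps for all members (457), mitotic cyclins and kinases (74.2) and kinetochore genes (101), and in tip clumps for all members (831), licensing and fork genes (136) and mitotic cyclins and kinases (161 CPM). Without mouse 4 the mean crypt sum was 1335 ± 73.2 CPM and the mid-villus sum 177 ± 29.8 CPM. In crypt pairs alone mouse 4 had 1303 CPM, within the range of the other mice.

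Among crypt pairs mouse 1 was the lowest, with 813 CPM for all members. Among crypt enterocyte-like single cells mouse 1 was the highest, with 1852 CPM from 5 cells and 12958 UMIs. The clumps of mouse 6, labelled h2n and outside the reported comparisons, held 518 CPM of the members in 122 crypt clumps, from 410 UMIs of 42 members, beside 114 CPM in mid-villus and 105 CPM in tip clumps.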

How the results depend on the processing

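The tip clumps held 1575447 UMIs in all, so that levels near 1 UMI per mouse carry no order, and the calls in goblet-like, tuft-like and enteroendocrine-like cells rest on sums as small as 11299 UMIs. Over all alternatives 0 of the results tallied below reversed. Scaled by total UMIs, however, the members' medians in goblet-like, tuft-like and enteroendocrine-like cells changed sign, as given above. Of the recomputed summary counts and shares, 128 stayed close to the reported ones (counts within 1.5 times) and 30 moved. Of the values for groups and for single genes named by rule, 1681 kept their side of the threshold or their level. Of the others, 97 lost a call, 5 gained one and 40 moved. Calls gained by other members, such as Hmmr, Cenpe and Kif20a with the block, are outside this tally. In pairs alone 26 members were lower at the tip (40 in all clumps) and 29 in the mid-villus (44), with 31 tested. With mouse 6 added, 36 members were lower at the tip and 41 in the mid-villus, with 41 tested. Tip against mid-villus (0 members) gave 1 with the DESeq2 test and 1 with the replicate block. In goblet-like cells 3 members were called, and 1 with the DESeq2 test, 1 with filterByExpr (5 tested), 1 to 2 without 1 mouse each (1 without mouse 3 or 4), and 1 with no upper limits on cells. In tuft-like cells 2 were called, and 1 each with total UMIs, the DESeq2 test, filterByExpr and types by marker sums, 1 to 2 without 1 mouse each, and 8 with no upper limits on cells. In enteroendocrine-like cells 2 were called, and 1 each with total UMIs, the DESeq2 test, filterByExpr and no upper limits on cells, and 0 to 2 without 1 mouse each (0 without mouse 2). In immune-like cells 13 were called, and 5 with the DESeq2 test and 5 with filterByExpr, and 8 to 12 without 1 mouse each (8 without mouse 4). In single enterocyte-like cells 12 were lower at the tip and 10 in the mid-villus, 3 and 3 with filterByExpr (3 tested) and 28 and 19 with no filter (48 tested). The share of crypt clumps with a member UMI was 43.4% thinned and 72.8% without thinning. Scaling by DESeq2's size factors gave 1481 higher and 1878 lower genes for mid-villus against crypt (1027 and 2325 with TMM), and total UMIs gave 280 and 617 for tip against mid-villus (410 and 585), 546 and 3145 for tip against crypt in single enterocyte-like cells (1739 and 1814) and 290 and 1413 for mid-villus (755 and 1035). With the mouse as a replicate block, 42 members were lower at the tip, 44 in the mid-villus, 11 higher in immune-like cells, and 13 and 10 lower in single enterocyte-like cells; for pairs against larger clumps the block gave 0 members and 44 genes. Without the 4-month plates of mouse 2, 9 members were lower in mid-villus enterocyte-like cells. The alternatives with no upper limits on cells and without those plates, and the leave-one-out and block fits for the mid-villus size effect, and the bounds without mouse 4, were chosen after seeing the data. Where a count changed, the cause was not tested, except that filterByExpr and pairs alone leave fewer genes tested. For most alternatives the share of all genes called is not given. Their member counts cannot be set beside the shares of the reported fits.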
